A study of Mus musculus with 18 samples.

Results

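Acly, Slc25a1, Acss2 and Acss1 encode the enzymes and the carrier by which cells obtain acetyl-CoA from citrate and from acetate. Their RNA was followed in spleens filled with T-cell acute lymphoblastic leukemia (T-ALL), an aggressive cancer of immature T cells, in which the Acly gene had been deleted or left intact. The 4 genes were chosen by symbol, and each was found in both deposited tables, which hold 18329 genes (acute) and 18953 genes (survival). All recipients were C57BL/6 mice that were irradiated below a lethal dose and received, by vein, T-ALL cells carrying a conditional Acly allele, so the control leukemias carried that allele too. Knockout (KO) mice received 3 mg tamoxifen in corn oil into the abdomen, and the mice called wild-type (WT) in the sample titles received corn oil alone. A KO and WT difference therefore includes the drug as well as the loss of Acly. The acute groups, WT acute (n = 4) and KO acute (n = 4), were treated once leukemia was overt, and their spleens were taken 48 h later. The survival groups were treated 48 h after the transplant and taken at the humane endpoint: WT survival (n = 4), KO survival first wave (n = 3) and KO survival second wave (n = 3). What set the waves apart, the exons that the allele loses, the Cre driver, the ages of the mice, and whether each library came from a separate mouse or leukemia are details not given in the sources used. The p-values thus measure spread between samples, which may be technical. The series' design text names 5 samples per genotype, whereas the 18 samples used are 10 KO and 8 WT.

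Acetyl-CoA is the unit from which fatty acids and cholesterol are built and with which histones and other proteins are acetylated. It is made inside mitochondria and cannot cross their inner membrane, so it leaves as citrate. Slc25a1, the mitochondrial citrate carrier, exports citrate to the cytosol, where Acly, ATP-citrate lyase, splits it into acetyl-CoA and oxaloacetate. Acss2, an acetyl-CoA synthetase of the cytosol and nucleus, makes the same product from acetate without citrate, and Acss1 is its paralog inside mitochondria. Proliferating T cells and leukemias draw on these routes for membranes and for histone acetylation.

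In the GENCODE M21 annotation of GRCm38, Acly lies on the minus strand at chr11:100476353-100528000, and its longest transcript has 29 exons and 4426 bases. Slc25a1 is a compact gene on the minus strand at chr16:17925223-17928219, with 9 exons and 1666 bases. Acss2 lies on the plus strand at chr2:155517948-155585724, with 18 exons and 2931 bases in its longest coding transcript. Acss1 lies on the minus strand at chr2:150618105-150668500, with 14 exons and 3618 bases. The stretches before the start sites of Acly, Slc25a1 and Acss2 are shown because SREBP factors, the sterol-sensing activators of lipid synthesis, are known to act on these genes and their pathway is among the lists measured here. They come from RefSeq on GRCm38.p6 and read 5′ to 3′ on the gene's strand. For Acss2, the stretch stops where the first annotated exon begins. Capitals mark matches, on either strand, to CACGTG (an E-box), CCAAT or GGGCGG (a GC box); no match overlapped another.
Acly, chr11:100528001-100528250, minus strand: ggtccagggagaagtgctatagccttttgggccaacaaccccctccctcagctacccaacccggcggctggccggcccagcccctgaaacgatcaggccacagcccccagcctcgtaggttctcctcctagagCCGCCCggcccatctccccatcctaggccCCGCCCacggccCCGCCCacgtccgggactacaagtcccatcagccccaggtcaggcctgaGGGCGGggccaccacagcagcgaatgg
Slc25a1, chr16:17928220-17928469, minus strand: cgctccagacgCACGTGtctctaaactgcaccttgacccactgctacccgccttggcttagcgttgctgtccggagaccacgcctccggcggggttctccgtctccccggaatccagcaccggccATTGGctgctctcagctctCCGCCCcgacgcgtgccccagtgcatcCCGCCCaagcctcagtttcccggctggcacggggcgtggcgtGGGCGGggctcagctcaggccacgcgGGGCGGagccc
Acss2, chr2:155517793-155517947, plus strand: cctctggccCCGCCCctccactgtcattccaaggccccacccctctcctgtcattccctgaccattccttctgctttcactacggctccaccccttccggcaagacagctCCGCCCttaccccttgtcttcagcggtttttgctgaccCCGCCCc

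The Acly stretch held 4 GC boxes and none of the other motifs, and the Slc25a1 stretch held 1 E-box, 1 CCAAT and 4 GC boxes. The Acss2 stretch as printed held 3 GC boxes. The full 250 bases before its start, which run into annotated exon sequence, held 1 CCAAT and 4 GC boxes. TCACNCCAC, the core of a sterol regulatory element, matched none of the 250 bases before the start of any of the 4 genes. Among all 32536 RefSeq promoters of the same length, 1.04% held TCACNCCAC, 6.04% CACGTG, 33.8% CCAAT and 33.0% GGGCGG. A match is a string of letters and not a measured site.

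Values are normalized counts: gene read counts divided by a size factor for each library. The 2 tables were normalized separately, so levels were compared within a table. The normalized totals ran from 7.07 to 10.39 M per library, and the depth estimated from the steps between low values from 6.1 to 12.7 M reads. All 16 T-ALL and thymocyte markers, among them Rag1, Tcf7, Notch1 and Ptcra, were measured, and none was at 0 throughout. Their summed level was 56070 to 80481 in KO acute against 85960 to 102271 in WT acute, without overlap, and 6 of the 16 fell and 1 rose there. Neutrophil markers summed to 1446 to 4378 in KO acute against 747 to 1634 in WT acute, and stromal and endothelial markers to 966 to 1199 against 675 to 826. Erythroid markers summed to 1554 to 8694 against 4778 to 9836, with overlap, and all 9 had lower values in KO acute, 1 of them called. In the survival table the T-ALL sums were 72666 to 120696 in WT, 117216 to 143146 in the first wave and 90585 to 105195 in the second, so each wave overlapped WT but the waves did not overlap each other. B cell markers summed to 136 to 200 in the second wave against 274 to 592 in WT survival. Mitochondrially encoded genes took 4.80% and 5.27% of KO acute 1 and 2, 2.35% and 2.70% of KO acute 3 and 4, and 3.50% to 3.69% of WT acute. WT survival 1 and 2 stood apart from the other survival libraries on the first principal component. The part of these differences in the results below was not tested beyond the values given. The spleens were filtered and freed of red cells by lysis, and the part of this preparation in the marker sums was not tested. In RNA from such material, fewer cells of a type and less RNA per cell cannot be told apart.

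Acly, the deleted gene, was lower in every KO library than in every WT library of its table, which is the check of the group labels and not a finding. The 4 WT acute libraries held 1422, 1129, 1231 and 1241 normalized counts. The KO acute libraries held 793, 804, 717 and 619.6. The KO values lay close together and well below the WT values, at 58.4% of the WT mean (733 ± 85.1 against 1256 ± 122, SD). Acly fell by 0.78 on the log2 scale (SE 0.13, limma adjusted p = 0.00266, below every WT library in 4 of 4 KO libraries). It was the 1 of the 4 genes that was called, in a comparison that called 12.6% of all 14184 genes tested (650 higher and 1144 lower), and in which 19.0% of all genes had no overlap between the groups. That split depends on the scaling: with every library brought to the same total it was 1094 higher and 718 lower, with the median of all genes moved from 0.03 to 0.16, with quantile normalization 746 and 832, and 553 and 607 after a trend over length, GC and abundance was taken out of each library.

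At the endpoint Acly stood at a smaller share of its own WT mean than in KO acute, which was not tested across the separately normalized tables. The WT survival libraries held 1722, 1727, 1854 and 1486 normalized counts. The first wave held 725, 656 and 799.6, or 42.8% of the WT mean. The second wave held 505, 569 and 655, or 34.0%. Every KO library lay far below the lowest WT library, and the highest second-wave value lay just under the lowest of the first wave. The second wave differed from WT survival by −1.56 on the log2 scale (SE 0.17, limma adjusted p = 0.00155), and both waves together by −1.39 (SE 0.14, adjusted p = 0.000798). The first wave differed by −1.22 (SE 0.17), which missed the threshold at a limma adjusted p = 0.0562, with an exact permutation p = 0.0286, the smallest that 3 against 4 libraries allow. In that comparison 0% of 14286 genes passed limma's threshold, with 1146 at an unadjusted p under 0.05, and 8.0% did not overlap between the groups. A difference between the waves did not pass (−0.34, SE 0.18, 95% interval −0.72 to 0.05, adjusted p = 0.860), although their values did not overlap, nor did those of 13.6% of all genes in that comparison. RNA at 34.0% to 58.4% of control was still counted from the gene: cells without deletion, host cells and transcripts of a deleted allele cannot be told apart here.

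**Figure D1:**
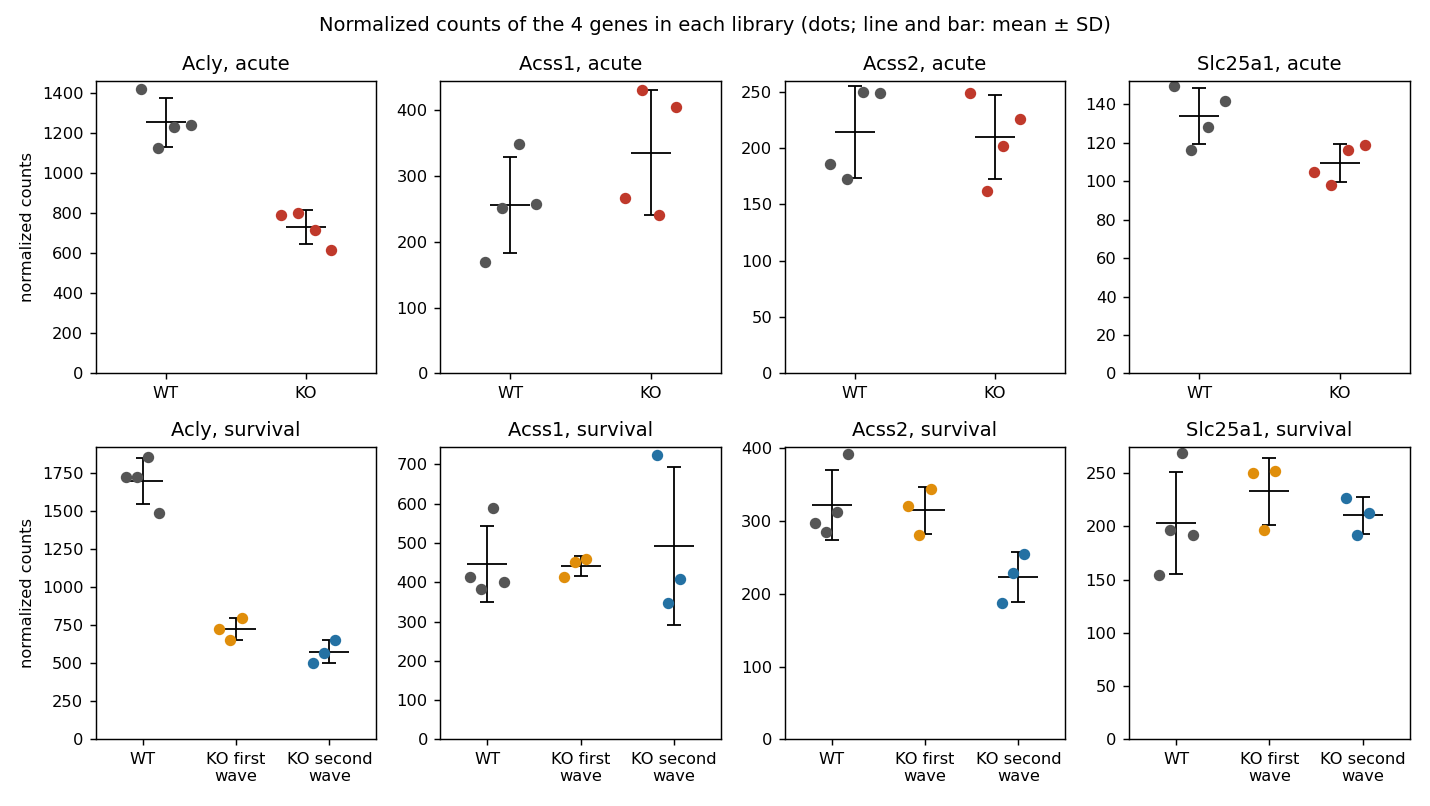
Normalized counts (vertical axes, from 0) of Acly, Acss1, Acss2 and Slc25a1 in each acute library (top) and each survival library (bottom); dots are libraries, the line and bar are the group mean ± SD. Acly is lower in every KO library than in every WT library of its table, Acss2 is lower in the second wave (187 to 254) than in WT survival (285 to 391), and the groups of Acss1 and Slc25a1 overlap throughout.

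Slc25a1, which supplies Acly with citrate, was not called in any comparison. The WT acute libraries held 150, 116, 128 and 142 normalized counts and the KO acute libraries 105, 98.1, 116 and 119. The KO acute values sat in the lower part of the WT range and just below it, and the highest KO libraries overlapped the lowest WT library. The difference was −0.29 on the log2 scale (95% interval −0.74 to 0.17, limma adjusted p = 0.402, exact permutation p = 0.0857), and the KO mean was 81.7% of WT. In the survival table WT held 155, 197, 269 and 192, the first wave 250.1, 197 and 252, and the second wave 227, 192 and 213. The WT libraries spread across nearly the whole range of both waves. The difference from WT was 0.21 in the first wave (95% interval −0.31 to 0.74, limma adjusted p = 0.807) and 0.08 in the second (−0.45 to 0.61, adjusted p = 0.921). As ratios to WT these intervals run from 0.80 to 1.67 in the first wave and from 0.73 to 1.52 in the second.

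Acss2, the acetate-using enzyme of the cytosol and nucleus, was near the WT level in KO acute and the first wave and lower in the second wave, where it was not called. The WT acute libraries held 186, 173, 249.5 and 249 normalized counts, and the KO acute libraries 249, 162, 202 and 226. The ranges covered each other, and the means were 214 ± 40.7 and 209.6 ± 37.0 (SD, n = 4 each). The difference was −0.03 on the log2 scale, with a 95% interval from −0.47 to 0.42 (limma adjusted p = 0.949); its sign turned positive (0.10) when each library was scaled to the same total. On the deposited scale a rise above 1.33-fold lay outside that interval. This bound does not cover other scalings, and Acss2 divided by the T-ALL marker sum is given below.

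In the survival table the WT libraries held 297, 285, 313 and 391 normalized counts of Acss2. The first wave held 320.1, 280.1 and 343, and the second wave 187, 228 and 254. The first wave lay within or just under the WT range, while every second-wave library lay below every WT and every first-wave library. The second-wave mean was 69.4% of WT, a difference of −0.53 on the log2 scale (SE 0.22, 95% interval −0.99 to −0.06, unadjusted p = 0.0304, limma adjusted p = 0.335). The exact permutation p was 0.0286, the smallest the design allows. Acly and Acss2 were the members without overlap there, beside 9.66% of all genes without overlap and 0.224% called (7 higher and 25 lower, or 32 genes, which became 140 without WT survival 3). Against the first wave, Acss2 differed by −0.50 (95% interval −1.001 to 0.0002, limma adjusted p = 0.787, exact permutation p = 0.1, the smallest possible), in a comparison with 13.6% of genes without overlap and 0.119% called. The T-ALL marker sums also separated the waves, lower in the second, and their part in this difference was not tested. Over 22 alternatives the difference from WT ran from −0.66 to −0.40 with adjusted p from 0.231 to 0.590, so the direction held and the call was never made. Over both waves Acss2 differed from WT by −0.28 (adjusted p = 0.536), in a comparison that called 0.0210% of genes and separated 2.12%.

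Acss1, the mitochondrial synthetase, varied more between libraries of a group than the other 3 genes in both acute groups and in the second wave. The WT acute libraries held 169, 252, 347.5 and 256 normalized counts, and the KO acute libraries 266.5, 429, 240.4 and 404. KO acute 2 and 4 exceeded every WT library, and KO acute 1 and 3 lay within the WT range. The mean was 131% of WT, and the difference was 0.39 on the log2 scale (SE 0.25, 95% interval −0.14 to 0.92, limma adjusted p = 0.329). In the survival table WT held 412.5, 382, 590.1 and 400.1, the first wave 412.5, 453 and 458, and the second wave 723, 346 and 408. WT survival 3 and second-wave library 1 were the high values of their groups, and the rest lay close together. The same libraries held the highest erythroid (21439 and 29643) and macrophage (1165 and 1864) marker sums of their groups. WT survival 4 held sums of 18875 and 1050 with Acss1 at 400.1, and the part of these sums was not tested. The differences from WT were 0.00 in the first wave (95% interval −0.54 to 0.55, adjusted p = 0.997) and 0.09 in the second (−0.46 to 0.64, adjusted p = 0.911). Without that second-wave library the value was −0.22 (adjusted p = 0.780).

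**Figure D2:**
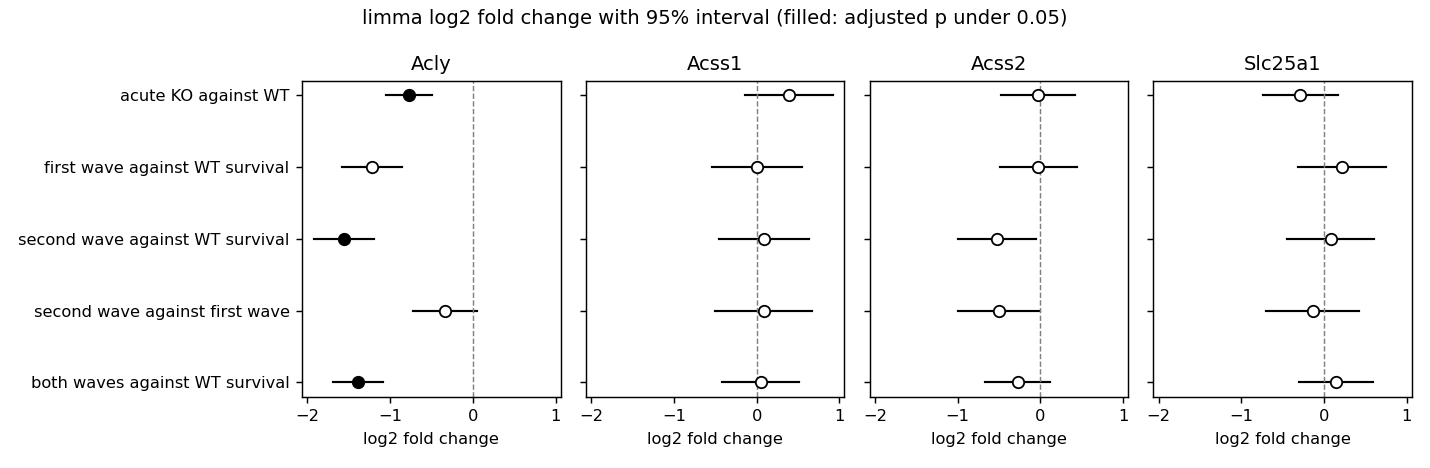
Log2 fold change (horizontal axes) of each of the 4 genes in the 5 comparisons, as points with 95% intervals from limma; filled points have an adjusted p under 0.05. The filled points are Acly in the acute comparison (−0.78), the second wave (−1.56) and both waves (−1.39); the intervals of the other genes span 0 except Acss2 in the second wave (−0.99 to −0.06), which missed the adjusted threshold.

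Levels of different genes can be set side by side per length. Per kb of the longest transcript, WT acute held 284 ± 27.5 normalized counts of Acly, 80.4 ± 8.87 of Slc25a1, 70.8 ± 20.2 of Acss1 and 59.3 ± 11.3 of Acss2. Acly led by more than the spread between libraries, and neighbours among the other 3 did not differ beyond theirs. Their order also rests on the length used: the longest Acss2 transcript is not coding, and per kb of the coding one Acss2 stood at 73.0. In KO acute the Acly level per kb was 166 ± 19.2 and remained the highest of the 4, beside 92.6 ± 26.4 for Acss1. In WT survival Acly stood at 383 ± 34.7 per kb, with Acss1 at 123, Slc25a1 at 122 and Acss2 at 89.1. In the second wave the mean of Acly no longer led: Acly stood at 130.2 ± 17.0 per kb, Acss1 at 136 ± 55.8 and Slc25a1 at 126 ± 10.5. These did not differ beyond their spread, while Acss2 stood at 61.8 ± 9.43. Per kb of the longest transcript, the lost lead rests on library 1, where Acss1 and Slc25a1 exceeded Acly. In libraries 2 and 3 Acly remained the highest of the 4 by that length. By the mean transcript length, the mean of Acss1 stood above that of Acly in both waves. It was 376 ± 21.2 against 305 ± 30.1 in the first and 419 ± 172 against 242 ± 31.6 in the second. Levels per kb of the longest transcript, and not of other lengths, were summed over the acetyl-CoA-making enzymes Acly, Acss2 and the mitochondrial Acss1. Of this sum Acly took 68.6% in WT acute and 52.5% in KO acute. It took 64.4% in WT survival, 43.9% in the first wave and 40.2% in the second wave. The lower second-wave mean rests on library 1 at 31.2%: libraries 2 and 3 stood at 44.7% each, within the first-wave range of 42.2% to 44.9%.

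The ratio of 2 genes within a library does not depend on how that library was scaled. Relative to the Acly counts of the same library, Acss1 stood at 20.8% in WT acute and 46.4% in KO acute, without overlap, and Slc25a1 at 10.7% and 15.2%, also without overlap. Acss2 stood at 17.2% and 29.0%, and there the lowest KO library (20.2%) fell inside the WT range. In the survival table Acss2 stood at 19.2% of Acly in WT, 43.3% in the first wave and 38.6% in the second. Its spread over the waves was small, with 42.7% to 44.1% in the first and 37.0% to 40.2% in the second. Acss1 stood at 26.2%, 61.1% and 88.8%, and second-wave library 1 held more Acss1 than Acly (143%). Slc25a1 stood at 12.0%, 32.0% and 37.1%. Every KO survival library exceeded every WT survival library in all 3 ratios. Since Acly is the deleted gene, a higher ratio follows wherever the partner's level stayed within its spread, and no test was made. The share of all genes whose ratio to Acly did not overlap was not measured, so whether the lack of overlap is particular to these genes is not known.

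**Figure D3:**
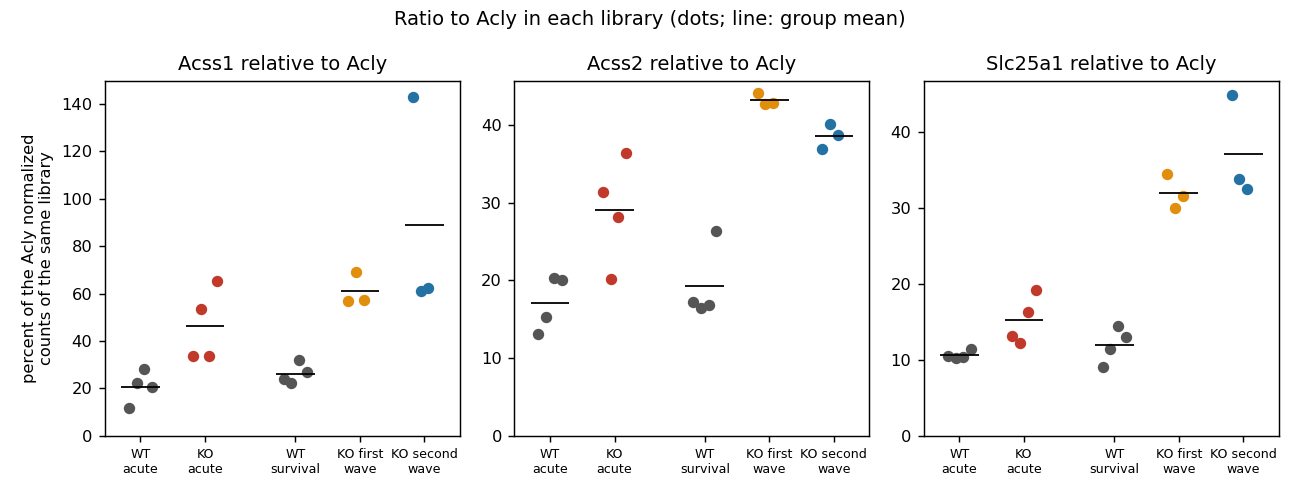
Normalized counts of Acss1, Acss2 and Slc25a1 as a percent of the Acly counts of the same library (vertical axes, from 0), by group; dots are libraries and lines are group means. The WT survival libraries sit between 9.0% and 31.8%, and every KO survival library lies above every WT survival library of the same panel.

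The T-ALL marker sum was lower in KO acute, so the 4 genes were also divided by it, an alternative chosen after the data were seen. Per 1000 marker counts, Acly in KO acute was 82.3% of WT, and the groups overlapped (8.62 to 14.3 against 12.0 to 16.5). Acss2 was 137% of WT without overlap (2.51 to 3.79 against 1.91 to 2.47). Acss1 was 190% and Slc25a1 113%, both with overlap. On this scale the acute Acly difference is thus smaller than on the deposited scale, and Acss2 is higher in place of near equal. The marker sum in KO acute was itself 72.3% of WT, so dividing by it raises the KO share of WT by itself. The shift follows from the divisor, and no conclusion on Acss2 is drawn from it. The share of all genes without overlap on this scale was not measured. At the endpoint Acly remained far below WT, at 31.2% in the first wave and 32.6% in the second, without overlap. Acss2 in the second wave was 67.8% of WT on this scale, and there the groups overlapped (2.06 to 2.73 against 2.59 to 4.09). In the first wave it was 72.5% (2.24 to 2.93), which also overlapped WT. The waves overlapped each other on this scale, whereas on the deposited scale they stood at 97.8% and 69.4% of WT without overlap. The marker sum stood at 132% of WT in the first wave and 99.6% in the second, so the division lowers first-wave values by itself.

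Genes that feed, carry or spend acetyl-CoA were followed in 7 lists. In the acute comparison the median of all genes was 0.03 on the log2 scale. The list for making mitochondrial acetyl-CoA from pyruvate, which includes carriers and regulators, had the lowest median, −0.42. It held 0 higher and 4 lower of 13 tested. Mpc1, which with Mpc2 forms the carrier of pyruvate into mitochondria, fell from 401 ± 74.4 to 190 ± 21.1 normalized counts (log2 −1.06, limma adjusted p = 0.00308). Dld, a shared subunit of the pyruvate and oxoglutarate dehydrogenases, fell by 0.67 (adjusted p = 0.0148) and Pdha1, a catalytic subunit of pyruvate dehydrogenase, by 0.58 (adjusted p = 0.0188). The other gene called was Pdk3, a kinase that switches pyruvate dehydrogenase off (−0.70, adjusted p = 0.0408), named after its value was seen. Of the genes of citrate synthesis, export and their partners, 0 rose and 2 of 17 fell, with a median of −0.26. Idh3a, a catalytic subunit of the isocitrate dehydrogenase of the citric acid cycle, fell from 804 ± 71.2 to 408 ± 36.0 (−0.98, adjusted p = 0.00106), and Mdh1, the cytosolic malate dehydrogenase that handles the oxaloacetate made by Acly, fell by 0.71 (adjusted p = 0.00835).

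Among 14 other genes of acetate and ketone body use, Slc16a1 fell and none rose (median −0.03). Slc16a1 encodes a carrier of lactate, acetate and ketone bodies and dropped from 5642 ± 454 to 3793 ± 453 normalized counts (−0.58, limma adjusted p = 0.00479). None of the 9 carnitine shuttle genes passed in either direction (median 0.23, 2 at an unadjusted p under 0.05). Their lowest p-values belonged to Cpt2 and Crat, which handle acyl and acetyl groups on carnitine, at −1.32 (adjusted p = 0.0815) and −1.41 (adjusted p = 0.108). Without KO acute 3, the 1 KO library with a high Crat value, Crat stood at −1.95 (adjusted p = 0.0213), and without KO acute 1, Cpt2 stood at −1.75 (adjusted p = 0.0238). With KO acute 1 and 2, the libraries of high mitochondrial share, left out, 1 of 8 tested rose and none fell: Cpt1a, which makes long-chain acylcarnitines, stood at 0.72 (SE 0.20, limma adjusted p = 0.0484), against 0.23 (adjusted p = 0.579) with all libraries.

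The genes that spend cytosolic acetyl-CoA moved in both directions, with 1 higher and 3 lower of 13 (median −0.20). Acaca, acetyl-CoA carboxylase and the gateway to fatty acids, rose from 1417 ± 342 to 2016 ± 251 normalized counts (0.53, limma adjusted p = 0.0387), with overlap between the groups. Hmgcs1, the cytosolic HMG-CoA synthase, fell by 0.56 (adjusted p = 0.0253), and Slc33a1, a carrier of acetyl-CoA into the endoplasmic reticulum that was named after its value was seen, fell by 0.71 (adjusted p = 0.0456). With equal library totals the genes that spend cytosolic acetyl-CoA held 1 higher and 0 lower of 13, and with quantile normalization 1 and 1. In the SREBP list 1 of 19 rose and 3 fell (median 0.03). The riser was Srebf1 itself, which encodes the SREBP-1 factors, from 275 ± 111 to 532 ± 60.2 (1.03, adjusted p = 0.0160), and Sqle, squalene epoxidase, fell by 0.99 (adjusted p = 0.0105) beside Hmgcs1, which both lists share. The split of the SREBP list depended on the scaling: 3 higher and 1 lower with equal library totals, and 2 and 2 with quantile normalization. Among 16 regulators of the ACLY and ACSS proteins 2 rose and 3 fell (median −0.05). Mlx, a partner of glucose-sensing transcription factors, fell from 306 ± 24.1 to 174 ± 13.7 (−0.81, adjusted p = 0.00744), and Cul3, the scaffold of a ubiquitin ligase that degrades ACLY, fell by 0.59 (adjusted p = 0.00676). Sirt5, a mitochondrial deacylase, rose by 0.45 (adjusted p = 0.0185). The other called genes, named after their values were seen, were Sirt1, a deacetylase that activates the ACSS2 enzyme (0.41, adjusted p = 0.0372), and Prkaa1, a catalytic subunit of AMP-activated kinase (−0.50, adjusted p = 0.0266).

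Of the 18 distinct list genes called, Idh3a, Mlx and Mpc1 kept their call in all 19 alternatives of the acute comparison. Taking out the trend over transcript length, GC and abundance ended the calls of Mdh1, Dld, Pdha1, Slc16a1, Cul3, Hmgcs1 and Acaca, with adjusted p from 0.0633 (Cul3) to 0.161 (Hmgcs1), and of Pdk3, Slc33a1 and Prkaa1. A variance model without a trend over abundance ended all calls except those of Idh3a, Mlx, Mpc1 and Sqle. Leaving out KO acute 1 and 2, the libraries of high mitochondrial share, ended those of Acaca, Hmgcs1, Pdha1, Sirt5, Sqle, Srebf1, Pdk3, Slc33a1, Prkaa1 and Sirt1. Besides Cpt1a, that setting newly called Idi1 of the SREBP list, named after its value was seen (−0.54, limma adjusted p = 0.0393). Leaving out single libraries also ended calls: WT acute 2 for Srebf1 (adjusted p = 0.0515), WT acute 2 or 4 for Pdha1 (0.0597 and 0.0693), any of WT acute 1, 3 and 4 and KO acute 2 and 3 for Hmgcs1 (0.0583 to 0.0637), and any of WT acute 1, 2 and 3 and KO acute 1, 2 and 3 for Acaca (0.0553 to 0.108). Pdk3, Slc33a1, Prkaa1 and Sirt1 lost their calls in 10 to 13 of the 19 alternatives. All these counts stand beside the 12.6% of all genes called and the lower T-ALL marker sum in KO acute, whose part in them was not tested.

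**Figure D4:**
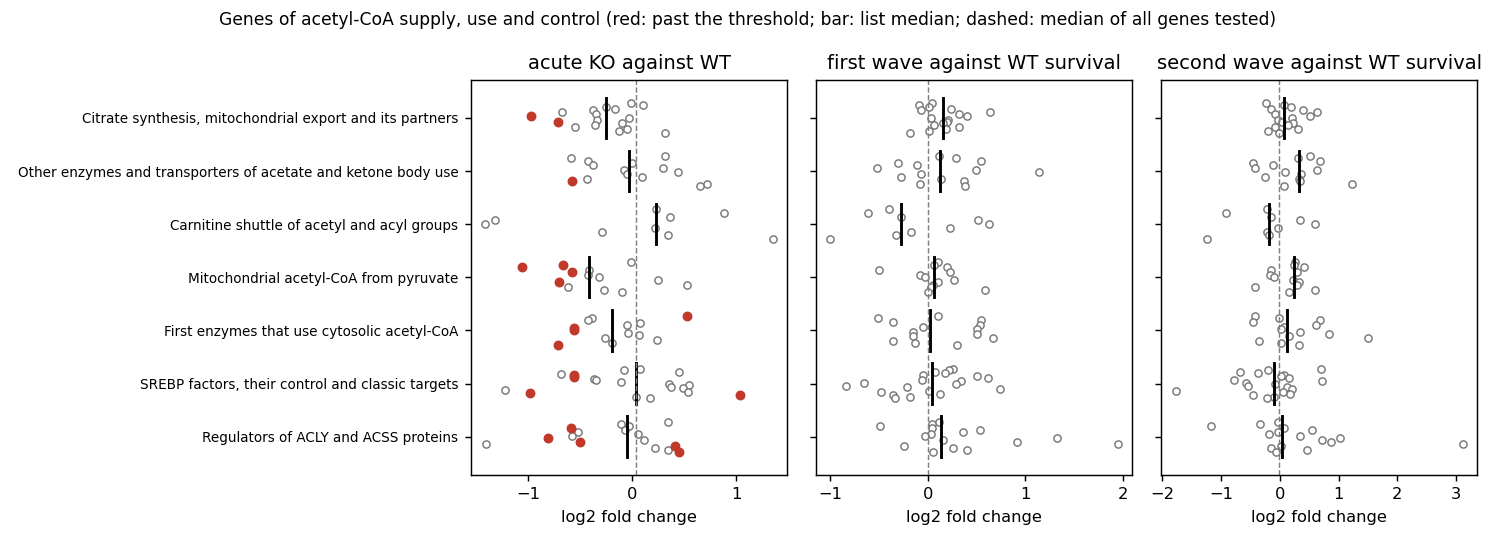
Log2 fold change (horizontal axes, scaled for each panel) of every tested gene in 7 lists, in KO acute and in each wave; filled red points passed the adjusted threshold, bars are list medians and dashed lines the median of all genes. The pyruvate list has the lowest acute median (−0.42), and no list gene passed in either wave.

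In the survival comparisons no list gene passed limma's threshold in any of the 7 lists, and 0 to 5 genes per list had an unadjusted p under 0.05. Prkaa2, the other catalytic subunit of AMP-activated kinase, came nearest, at 150 ± 86.0 normalized counts in the second wave against 19.2 ± 14.7 in WT survival (3.12, limma adjusted p = 0.0749), and it passed without WT survival 3 (3.51, adjusted p = 0.0314). In the first wave Prkaa2 stood at 59.0 ± 12.4 (1.95, unadjusted p = 0.00938, adjusted p = 0.617). Pdp2, a phosphatase that switches pyruvate dehydrogenase on, was higher than every WT library in both waves, at 753 ± 41.4 and 774 ± 145 against 503 ± 45.3, with adjusted p = 0.617 and 0.202. Insig1, which retains SREBP precursors and is itself an SREBP target, stood at 413 ± 14.9 in the second wave, below every library of WT survival (746 ± 259) and of the first wave (689 ± 97.6), with adjusted p = 0.231 and 0.642. Fasn, fatty acid synthase, differed from WT by 0.54 and 0.61 in the first and second wave (adjusted p = 0.617 and 0.265). The acute fallers Idh3a and Slc16a1 had positive values in both waves: 0.40 and 0.51 for Idh3a (adjusted p = 0.626 and 0.336), and 0.37 and 0.35 for Slc16a1 (adjusted p = 0.617 and 0.418). The pyruvate list had medians of 0.07 and 0.24 in the waves, beside 0.01 and −0.01 for all genes, and whether they differ from the acute value was not tested.

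The genes whose RNA ran most alike with each member were taken as those with the highest value of the lower of a pair of Pearson coefficients, over the 8 acute and over the 10 survival libraries, among 7767 genes with a mean of at least 100 in both tables. The points share library and scaling, and the coefficients are descriptions. For Acly these were Atp6v1d, a subunit of the vacuolar proton pump (0.87 and 0.76), Lrrc8c, a subunit of volume-regulated anion channels (0.75 and 0.77), and Phgdh, the first enzyme of serine synthesis (0.88 and 0.75). From deviations within groups the survival coefficient of Lrrc8c was −0.41 and that of Atp6v1d 0.23. For Slc25a1 they were Chchd2, a mitochondrial protein (0.86 and 0.85), Ly6d, a surface marker of early lymphoid cells (0.85 and 0.82), and Med19, a Mediator subunit (0.82 and 0.84). For Acss2 they were Nfe2l3, a transcription factor (0.69 and 0.71), Irs2, an adaptor of the insulin receptor (0.68 and 0.70), and Gbp6, an interferon-induced GTPase (0.67 and 0.79). Within groups their acute coefficients were 0.82, 0.81 and 0.72, and their survival coefficients 0.64, 0.35 and 0.36. For Acss1 they were Exoc6, a subunit of the exocyst (0.76 and 0.88), Arpc2, of the actin-branching complex (0.71 and 0.68), and Ubac1 (0.66 and 0.68); Exoc6 kept its likeness within groups (0.83 and 0.88).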

How the data were processed

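RNA was measured in 18 libraries from leukemic spleens. Each spleen was passed through a filter and freed of red cells by lysis before total RNA went into strand-specific libraries, per the labels' protocols. The authors deposited 2 tables in the unit signal. These are kallisto 0.44.0 estimates of reads per gene on GRCm38, scaled by DESeq size factors, per the submitters' processing notes; the annotation, gene filter, strand setting and version of DESeq are details not given in the sources used. Of values below 8, 38.1% to 63.6% lay within 0.02 of a whole multiple of the smallest step, too few to recover reads, so no count model was fitted. The estimated depth sets counting error only.

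Log2(value + 1) was tested in R 4.3.3 with limma 3.58.1 (lmFit, eBayes with trend, two-sided, Benjamini-Hochberg over all genes tested, threshold 0.05) for genes whose mean over the table was 10 or more. Fold changes on that scale understate those of low genes. The acute fit held 8 libraries and the survival fit all 10, with 1 shared estimate of the spread. Exact permutation tests were two-sided, over all assignments. The tests were checked on simulated data. The 4 genes and the lists were chosen with earlier results of these data known. The text names the 4 genes, up to 3 called genes of each list (or 2 with the smallest p where none was called), and the 3 genes most like each member; others are marked where named, and 1 called list gene is not reported here. Alternatives changed the pseudocount, filter, scaling, variance model, covariates, block and libraries used.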

Additional observations from a re-analysis of the deposited data

Results flagged for a closer look

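In groups of 4, the value of 1 library stood far from the other 3 (its gap to the nearest was more than 0.829 of the whole range) in 8 of the 150 groups and genes looked at, and chance gives about 1 in 20. Among the 4 genes this held for 1 of 12 groups: Acss1 in WT survival 3, at 590.1 normalized counts against 382 to 412.5 in the others. In KO acute it held for Crat in replicate 3 (78.7 against 13.1 to 20.8) and for Prkaa2 in replicate 2 (4.5 against 37.3 to 41.9). In WT acute it held for Acaca (1927 against 1201 to 1283) and Idh3a (910.8 against 759.9 to 775) in replicate 4, and for Cpt1b (32.8 against 19.2 to 20.6) and Dld (882 against 965 to 981) in replicate 1. In WT survival 4 Cpt1b stood at 105.8 against 16.7 to 30.9.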

How the results depend on the processing

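Of 428 alternative values of the 20 member comparisons, 420 kept their call, and where called their direction; no call was lost. The other 8 brought Acly in the first wave past the threshold: pseudocount 5 (−1.218), no filter (−1.222), a mean of at least 50 (−1.222), quantile normalization (−1.217), equal library totals (−1.238), robust eBayes (−1.222), the trend removed (−1.237) and leaving out second wave replicate 3. Leaving out each library gave −1.293 to −1.151, and the adjusted p ran from 0.0255 to 0.697. From deviations within groups, the survival coefficient of Lrrc8c with Acly turned to −0.41.

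The count of genes called ran from 693 (eBayes without trend) to 1916 in the acute comparison, against 1794, with 983 without WT acute 4, 1179 without WT acute 2 and 903 without KO acute 1 and 2. It ran from 13 to 140 in the second wave, against 32, from 1 to 38 between the waves, against 17, from 2 to 155 over both waves, against 3, and from 0 to 3 in the first wave. The 140 and 155 were without WT survival 3, and the 38 without second wave replicate 3. The cause was not tested. Leaving out WT survival 1 and 2 or KO acute 1 and 2, and dividing by markers or by coding length, were chosen after the data were seen.

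Same-numbered libraries did not deviate together (correlations −0.029 to 0.095), so the numbers are not taken as pairs. With the replicate block, Acly differed by −0.78 in KO acute, −1.285 in the first wave and −1.623 in the second, Acss2 by −0.43 in the second, and the calls numbered 1391 in the acute comparison and 2 between the waves. Per kb of the mean transcript length, Acss1 in WT acute (218) stood above Slc25a1 (159), and the mean of Acss1 stood above that of Acly in both waves. A comparison of the members' proteins was planned and not run. The number of libraries and the depth limit which small differences could be detected.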
